A study of Rattus norvegicus with 36 samples.

Results

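The glutathione S-transferase (GST) genes of rat liver were followed across 5 daily doses of decabromodiphenyl ether (decaBDE), a brominated flame retardant used in plastics and textiles. Members were the probe sets of the array whose annotation carries only symbols beginning with Gsta, Gstm, Gstp, Gstt, Gstk, Gsto, Gstz or Mgst, whatever their values. The rule gave 25 probe sets of 31042 tested, which stand for 25 of the 14863 genes the annotation names. They were 6 alpha genes, 7 mu genes, 2 pi genes, 3 theta genes and 7 others (kappa, omega, zeta and the microsomal enzymes). One probe set is shared by Gsta2 and Gsta5, so these genes cannot be told apart here, and Gstt2 has 2 probe sets. The rats were males of the Harlan Sprague Dawley stock, 7 weeks old at the start, on NTP-2000 diet. All groups were gavaged on 5 consecutive days with corn oil at 5 ml/kg, which carried no decaBDE (the vehicle group) or 0.1 mg/kg, 0.959 mg/kg, 9.59 mg/kg, 95.9 mg/kg or 959 mg/kg of it. RNA of the left liver lobe, taken 1 day after the last dose, was measured on Affymetrix 3' expression arrays, 6 per group and 36 in all. The design compared each dose with vehicle, so the 5 dose comparisons share the same 6 vehicle arrays.

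GSTs join the tripeptide glutathione to reactive or foreign compounds, which makes them more soluble and ready for export from the cell. The soluble enzymes are dimers of subunits from the same class, and alpha and mu subunits are abundant in rat hepatocytes. Many GST genes of rodent liver are known to be induced by foreign chemicals through the receptors CAR, PXR and AhR and through NRF2, the regulator of antioxidant genes. All levels below are log2 RMA signals, a background-corrected and normalized measure for a probe set, and 1 unit is a doubling. A difference is a dose-group mean minus the vehicle mean on this scale. Levels of GST probe sets are not compared with each other, since their hybridization differs, and are only set against the median of all probe sets or the range of the data.

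The arrays resembled each other, with Pearson's r across probe sets, which are not independent replicates, between 0.988 and 0.996. One array, 0.1 mg/kg replicate 6, differed from the rest, with an array weight of 0.517, the lowest. The labels do not say outright that every array came from its own rat, so p-values measure the spread between arrays. The 6 measured hepatocyte markers, such as albumin and transthyretin, had a mean level between 13.92 and 14.00 in the vehicle arrays and 13.88 and 13.96 at 959 mg/kg. In whole liver, fewer cells of a type and less RNA per cell cannot be told apart.

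At the highest dose, 959 mg/kg, 21 of the 25 GST probe sets were above their vehicle mean (49.5% of all probe sets were) and 3 rose past the threshold, an adjusted p under 0.05. They were Gsta4 (1.31-fold), Gstm1 (1.22-fold) and Gstk1 (1.18-fold), and 0 fell. Among all probe sets tested, 0.103% rose at this dose. Without adjustment, 13 of 25 GST probe sets rose at p under 0.05 (3.55% of all probe sets) and 1 fell (2.53% of all). The median GST difference was 0.17, while the median over all probe sets was -0.00105.

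At 0.1 mg/kg no GST probe set was called (limma, 0% of all probe sets were). Without adjustment 0 rose and 0 fell at p under 0.05, against 2.22% and 1.56% of all probe sets. Their differences ran from -0.16 to 0.41 with a median of 0.0123. At 0.959 mg/kg 0 were called, against 0.029% of all probe sets, while without adjustment 5 rose (3.12% of all) and 1 fell (2.95%). At 9.59 mg/kg 2 rose, Gsta4 and the shared Gsta2 and Gsta5 probe set, where 0.106% of all probe sets rose. Without adjustment 10 rose (4.66% of all) and 0 fell (3.95%). At 95.9 mg/kg 0 were called (0.0838% of all rose), and without adjustment again 10 rose (3.53%) and 0 fell (3.49%). The number above the vehicle mean was 17, 20, 20 and 21 of 25 at the 4 lower doses, and over all probe sets it was 53.2%, 52%, 50.1% and 48.3%. A fit without variance moderation called Gstk1 alone at 95.9 mg/kg.

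**Figure D1:**
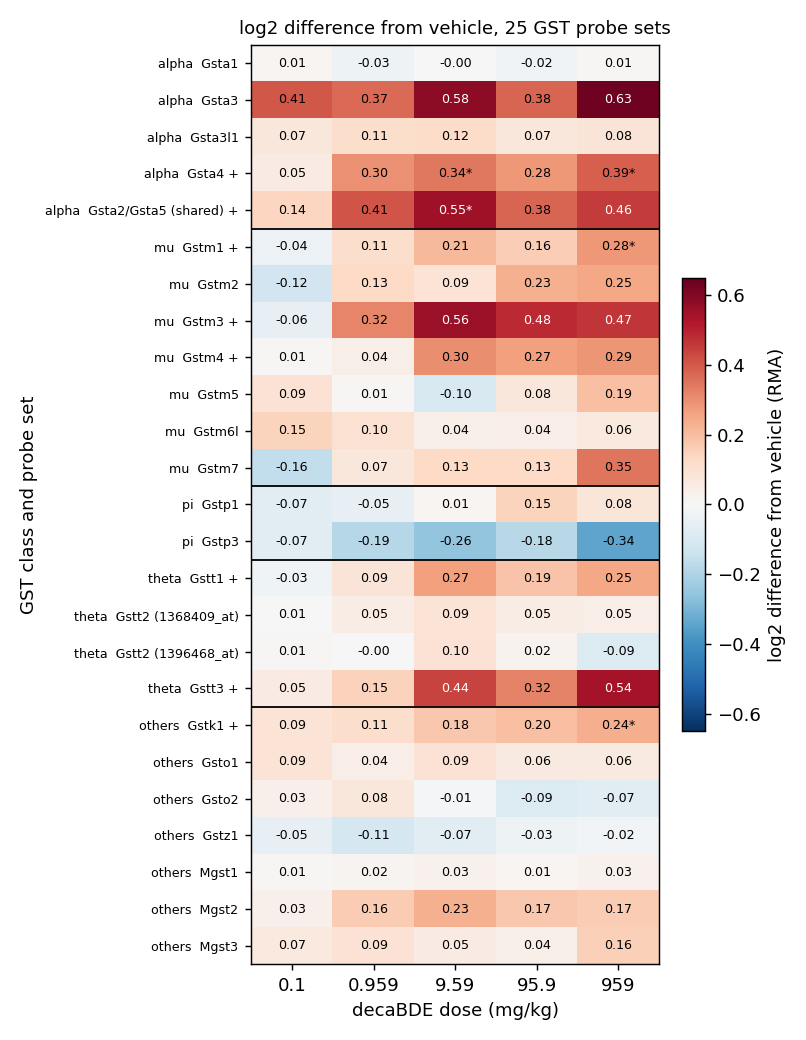
Log2 difference from the vehicle mean for each of the 25 GST probe sets (rows, by class) at each decaBDE dose in mg/kg (columns), on a colour scale from blue (lower) to red (higher); an asterisk marks an adjusted p under 0.05 and a plus sign after a name marks a rise with dose rank past the threshold. At every dose most cells are above 0, while Gstp3 is below 0.

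A straight line through the group means against dose rank (0 for vehicle to 5 for 959 mg/kg) called 8 GST probe sets, 8 up and 0 down. These were Gsta4, the Gsta2 and Gsta5 probe set, Gstm1, Gstm3, Gstm4, Gstt1, Gstt3 and Gstk1. They made up 32% of the GST probe sets, and 0.335% of all probe sets rose by this test, while 0.058% fell. Without adjustment 13 GST probe sets rose (4.66% of all) and 1 fell (4.05%), and 20 of 25 slopes were above 0 (46.9% of all). By class, the line called 2 of 5 alpha, 3 of 7 mu, 0 of 2 pi, 2 of 4 theta and 1 of 7 other probe sets. The 8 calls held without 0.1 mg/kg replicate 6. With log10 dose in place of rank and the vehicle arrays left out, 1 was called, Gstm1, and the adjusted p of the other 7 ran from 0.101 to 0.572. The doses are spaced nearly evenly in log10, as the ranks are, so that fit differs mainly in leaving out vehicle. An F-test for a difference at any dose called Gsta4 (adjusted p = 0.00876), Gstm3 (0.0245) and Gstm1 (0.0263), and it called 0.135% of all probe sets. Without adjustment it called 11 of 25 GST probe sets and 7.53% of all.

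**Figure D2:**
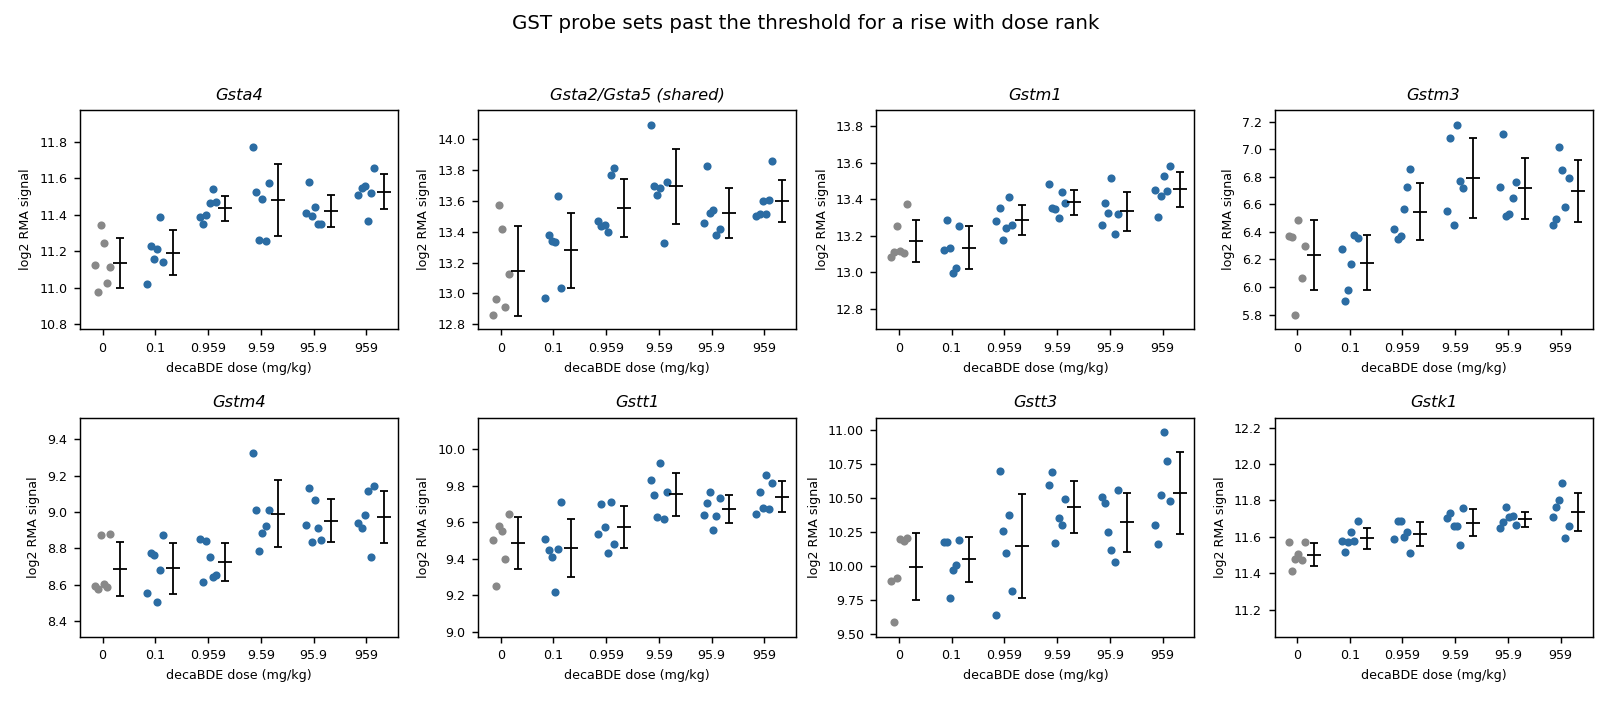
Log2 RMA signal of the 8 GST probe sets that rose with dose rank (1 panel each) in every array, by decaBDE dose in mg/kg; grey points are vehicle arrays, blue points dosed arrays, and bars show the mean and SD of 6 arrays. For Gsta4 all 6 arrays at 0.959, 95.9 and 959 mg/kg lie above every vehicle array, while in the Gsta2 and Gsta5 panel the vehicle arrays spread into the range of the dosed ones.

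Gsta4 encodes the alpha enzyme known for conjugating hydroxyalkenals, toxic products of lipid peroxidation. Its lowest, median and highest levels were 10.97, 11.12 and 11.35 in vehicle and 11.02, 11.19 and 11.39 at 0.1 mg/kg. They were 11.35, 11.43 and 11.54 at 0.959 mg/kg and 11.25, 11.51 and 11.77 at 9.59 mg/kg. They were 11.35, 11.40 and 11.58 at 95.9 mg/kg and 11.37, 11.53 and 11.66 at 959 mg/kg. All 6 arrays were thus above every vehicle array at 0.959, 95.9 and 959 mg/kg, the lowest of them only just, and 4 of 6 were at 9.59 mg/kg. Over all probe sets, 0.267%, 0.332% and 0.283% had all 6 arrays above every vehicle array at those 3 doses, and 0.435% did at 9.59 mg/kg, where no GST probe set was among them. Of the 25 GST probe sets 1, 3 and 4 did at the 3 doses, with Gstm3, Gstm7, Gstt1 and Gstk1 beside Gsta4 at 1 or both of the higher ones.

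The Gsta4 difference was 0.30 at 0.959 mg/kg (SE 0.073, adjusted p = 0.352), 0.34 at 9.59 mg/kg (adjusted p = 0.0381), 0.28 at 95.9 mg/kg (adjusted p = 0.186) and 0.39 at 959 mg/kg (adjusted p = 0.00923). The step from vehicle to the lowest dose was 0.05, with a median array close to that of vehicle. The slope was 0.077 per dose rank (SE 0.012, adjusted p = 0.000522). The call at 959 mg/kg held whichever single array was omitted (adjusted p at most 0.0441). Another quantile normalization (adjusted p = 0.0896) or omitting 1 of 8 arrays ended the call at 9.59 mg/kg, and on omission adjusted p then reached 0.185. These arrays were vehicle replicates 1, 2, 5 and 6 and replicates 1, 2, 4 and 6 of the dose. Fits of only the compared groups called 0 GST probe sets at 9.59 and 0 at 959 mg/kg.

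Gsta2 and Gsta5 encode the alpha subunits classically described as inducible in rat liver, and Gsta5 is known for conjugating the epoxide of aflatoxin. Their shared probe set had a lowest, median and highest level of 12.86, 13.04 and 13.57 in vehicle and 12.97, 13.34 and 13.63 at 0.1 mg/kg. At 9.59 mg/kg these were 13.33, 13.69 and 14.10, and at 959 mg/kg 13.50, 13.56 and 13.86. The dosed arrays were mostly above the vehicle median but overlapped the vehicle range: 5 of 6 lay above every vehicle array at 9.59 mg/kg and 3 of 6 at 959 mg/kg. The difference was 0.55 at 9.59 mg/kg (1.46-fold, SE 0.119, adjusted p = 0.0459) and 0.46 at 959 mg/kg (1.37-fold, adjusted p = 0.207). At 0.959 and 95.9 mg/kg it was 0.41 (adjusted p = 0.617) and 0.38 (adjusted p = 0.406).

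The call of the shared probe set at 9.59 mg/kg was close to the threshold, and it was lost without variance moderation (adjusted p = 0.0728) or with an intensity trend (adjusted p = 0.0729). It remained when any 1 of 10 arrays was left out (vehicle replicates 3 and 4, 0.1 mg/kg replicates 1, 5 and 6, 0.959 mg/kg replicates 5 and 6, 9.59 mg/kg replicate 5, 95.9 mg/kg replicate 2 or 959 mg/kg replicate 6). Omitting any 1 of the other 26 ended it, with adjusted p reaching 0.211. The slope of 0.090 per dose rank (SE 0.020, adjusted p = 0.0269) was no longer called, with adjusted p reaching 0.0777, when vehicle replicate 1, 2 or 5 or replicate 5 or 6 at 959 mg/kg was omitted.

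The other 3 alpha probe sets were not called in any test. Gsta3, an alpha subunit also known as inducible, had a lowest, median and highest level of 7.14, 7.85 and 8.39 in vehicle and 8.05, 8.31 and 8.89 at 959 mg/kg. Its difference at 959 mg/kg was the largest of the family, 0.63 (SE 0.231), but adjusted p was 0.646 and only 2 of its 6 arrays exceeded all vehicle arrays. The SD of Gsta3 within groups was 0.43, higher than that of 98.6% of all probe sets. Gsta1, by contrast, stayed within 0.034 of its vehicle mean at the 5 doses, with a 95% interval of -0.10 to 0.11 at 959 mg/kg. Gsta3l1 had a difference of 0.08 at 959 mg/kg. Its vehicle mean of 2.45 is under 5.16, the median over all probe sets.

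Gstm1 encodes a major mu subunit of rat liver. Its lowest, median and highest levels were 13.08, 13.11 and 13.37 in vehicle, 13.30, 13.36 and 13.48 at 9.59 mg/kg and 13.30, 13.45 and 13.58 at 959 mg/kg. Thus 5 of 6 arrays at 959 mg/kg lay above every vehicle array, and 1 vehicle array, the highest, reached into the dosed range. The difference was -0.04 at 0.1 mg/kg, 0.11 at 0.959 mg/kg, 0.21 at 9.59 mg/kg (adjusted p = 0.241), 0.16 at 95.9 mg/kg and 0.28 at 959 mg/kg (SE 0.060, adjusted p = 0.0434). The slope was 0.060 per dose rank (SE 0.010, adjusted p = 0.00111), and no single array ended that call. Omitting 1 of 18 arrays ended the call at 959 mg/kg, with adjusted p reaching 0.153. These were vehicle replicates 1, 2, 3, 4 and 5, 0.1 mg/kg replicate 1, 0.959 mg/kg replicates 1, 4 and 6, 9.59 mg/kg replicates 3 and 6, 95.9 mg/kg replicates 2 and 3 and 959 mg/kg replicates 1, 3, 4, 5 and 6. Another quantile normalization also ended the calls at 959 mg/kg (adjusted p = 0.0863) and by the F-test (adjusted p = 0.0548). The F-test call ended too, with adjusted p reaching 0.0773, on omitting 1 of 10 arrays: vehicle replicates 1, 2, 4 and 5, replicates 1, 3, 4 and 5 at 0.1 mg/kg, or 4 and 6 at 959 mg/kg.

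Gstm3, another mu subunit gene, had a lowest, median and highest level of 5.80, 6.33 and 6.49 in vehicle and 5.90, 6.22 and 6.37 at 0.1 mg/kg. From 0.959 mg/kg upward these were 6.35, 6.49 and 6.86, then 6.45, 6.74 and 7.18, then 6.51, 6.69 and 7.11, and at 959 mg/kg 6.45, 6.69 and 7.02. The 0.1 mg/kg arrays lay within the vehicle range, 3 of 6 arrays exceeded every vehicle array at 0.959 mg/kg, and 5, 6 and 5 of 6 did at the higher doses. The differences were 0.32, 0.56, 0.48 and 0.47 at 0.959, 9.59, 95.9 and 959 mg/kg, with adjusted p = 0.783, 0.0775, 0.206 and 0.255. With all probe sets tested, Gstm3 was therefore called by the F-test and the line (slope 0.120, SE 0.022, adjusted p = 0.00236) but at no single dose. After a median-level filter, or with the brightest probe set per gene, it was also called at 9.59 mg/kg. Omitting vehicle replicate 5 or replicate 2, 3 or 4 at 0.1 mg/kg ended the F-test call (adjusted p reached 0.0642), as did a fit without variance moderation (0.0619).

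Gstm4 had a lowest, median and highest level of 8.58, 8.60 and 8.88 in vehicle, 8.62, 8.70 and 8.85 at 0.959 mg/kg and 8.79, 8.97 and 9.33 at 9.59 mg/kg. At 959 mg/kg these were 8.75, 8.96 and 9.14. No array at 0.959 mg/kg was above every vehicle array, but 5 of 6 were at 9.59 mg/kg, 4 of 6 at 95.9 mg/kg and 5 of 6 at 959 mg/kg. The differences at the 5 doses were 0.01, 0.04, 0.30, 0.27 and 0.29 (adjusted p = 0.187 at 9.59 mg/kg and 0.279 at 959 mg/kg), with a slope of 0.071 per dose rank (SE 0.014, adjusted p = 0.00506). The contrast of 9.59 with 0.959 mg/kg gave Gstm4 a difference of 0.26 (adjusted p = 0.425).

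The other 4 mu genes were not called, although array weights added Gstm2 and Gstm7 to the calls by the line. Gstm2, a further abundant mu subunit of liver, had a difference of 0.25 at 959 mg/kg (SE 0.103, adjusted p = 0.748), from 11.83, 12.07 and 12.14 (lowest, median, highest) in vehicle to 12.13, 12.22 and 12.51. There 5 of 6 arrays lay above every vehicle array, and at 9.59 mg/kg the arrays ran from 11.76 to 12.44, on both sides of the vehicle range. Gstm7 had levels of 9.09, 9.20 and 9.22 in vehicle and 9.30, 9.51 and 9.73 at 959 mg/kg, so that all 6 arrays were above every vehicle array. Its difference was 0.35 (SE 0.116, adjusted p = 0.514). The dosed arrays of Gstm7 spread more widely than the vehicle ones, whose SD was 0.055 against a within-group SD of 0.21 over all arrays. Gstm5 and Gstm6l had differences of 0.19 and 0.06 at 959 mg/kg, and the vehicle mean of Gstm6l, 3.59, was under the median over all probe sets. All 7 mu probe sets were above their vehicle means at 959 mg/kg, with a median difference of 0.28.

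**Figure D3:**
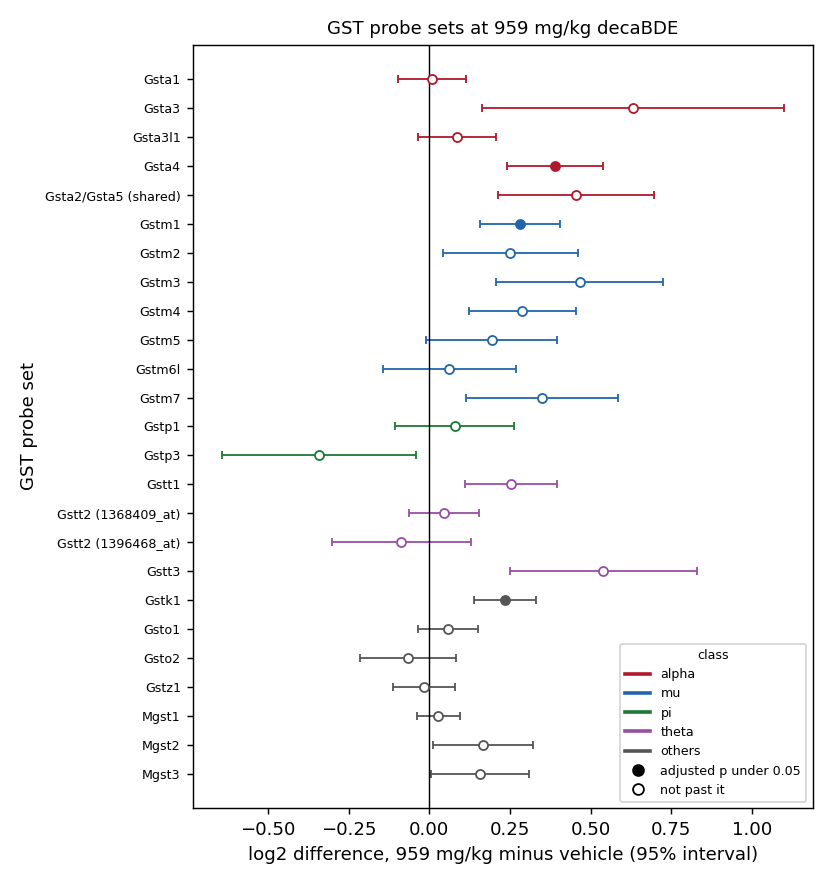
Log2 difference at 959 mg/kg from the vehicle mean for the 25 GST probe sets (rows), with 95% intervals from 6 arrays per group, coloured by class; filled points passed an adjusted p of 0.05. The 3 filled points are Gsta4, Gstm1 and Gstk1, and Gsta3 has the largest difference and the widest interval.

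Gstt1 encodes a theta enzyme known for acting on small halogenated compounds. Its lowest, median and highest levels were 9.25, 9.53 and 9.64 in vehicle, 9.62, 9.76 and 9.92 at 9.59 mg/kg and 9.65, 9.72 and 9.86 at 959 mg/kg. All 6 arrays at 959 mg/kg and 4 of 6 at 9.59 mg/kg lay above every vehicle array. The difference was 0.27 at 9.59 mg/kg (SE 0.070, adjusted p = 0.183) and 0.25 at 959 mg/kg (adjusted p = 0.263), and the slope was 0.060 per dose rank (SE 0.012, adjusted p = 0.00763).

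Gstt3, another theta gene, ran at 9.59, 10.05 and 10.21 in vehicle and at 10.16, 10.50 and 10.98 at 959 mg/kg (lowest, median, highest). Of its arrays, 5 of 6 exceeded every vehicle array at 9.59 and at 959 mg/kg, and those of 0.959 mg/kg spread from 9.64 to 10.70. The difference was 0.44 at 9.59 mg/kg (adjusted p = 0.324) and 0.54 at 959 mg/kg (1.45-fold, SE 0.143, adjusted p = 0.21), with a slope of 0.109 (SE 0.024, adjusted p = 0.0242). Omitting vehicle replicate 2 or 3, or replicate 4 or 5 at 959 mg/kg, ended the slope's call (adjusted p reached 0.0814). The 2 probe sets of Gstt2 were not called, with differences of 0.05 (1368409_at) and -0.09 (1396468_at) at 959 mg/kg.

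Neither of the pi genes was called. Gstp1, which encodes the placental form known as a marker of preneoplastic foci in rat liver, had a lowest, median and highest level of 8.59, 8.71 and 8.74 in vehicle and 8.61, 8.74 and 8.97 at 959 mg/kg. These overlapped, with 3 of 6 arrays above every vehicle array and a difference of 0.08 (95% interval -0.11 to 0.26, adjusted p = 0.956). Its neighbour Gstp3 had levels of 12.02, 12.28 and 12.46 in vehicle and 11.62, 11.87 and 12.35 at 959 mg/kg, where 5 of 6 arrays lay below every vehicle array. The Gstp3 difference was -0.34 (SE 0.148, unadjusted p = 0.0268, adjusted p = 0.77), and it was -0.07, -0.19, -0.26 and -0.18 at the 4 lower doses.

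Gstk1, the kappa enzyme of mitochondria and peroxisomes, changed by small amounts with little spread. Its lowest, median and highest levels were 11.41, 11.49 and 11.57 in vehicle, 11.52, 11.58 and 11.69 at 0.1 mg/kg and 11.51, 11.61 and 11.69 at 0.959 mg/kg. They were 11.55, 11.68 and 11.76 at 9.59 mg/kg, 11.65, 11.69 and 11.77 at 95.9 mg/kg and 11.60, 11.74 and 11.89 at 959 mg/kg. The number of arrays above every vehicle array was 4, 5, 5, 6 and 6 of 6 at the 5 doses. The difference was 0.09, 0.11, 0.18, 0.20 and 0.24 (SE 0.048), with an adjusted p = 0.191 at 9.59 mg/kg, 0.152 at 95.9 mg/kg and 0.0224 at 959 mg/kg. The slope was 0.044 per dose rank (SE 0.008, adjusted p = 0.00244). Omitting vehicle replicate 2, 3 or 5, or replicate 2, 3 or 4 at 959 mg/kg, ended the call at that dose (adjusted p reached 0.117), while no single array ended the slope's call.

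Leaving out vehicle replicate 2, 3 or 5 or 959 mg/kg replicate 3 or 4 reduced the 3 GST calls at 959 mg/kg to 1. The microsomal enzymes, which belong to a separate family of membrane proteins, were not called. Mgst1, abundant in the endoplasmic reticulum of hepatocytes, had a difference of 0.03 at 959 mg/kg (95% interval -0.04 to 0.09). Its SD within groups was 0.027, lower than that of all but 0.0419% of probe sets, near the top of the signal range (14.12 in vehicle, with a highest value of 15 in the data). Mgst2 had a difference of 0.23 at 9.59 mg/kg (SE 0.076, adjusted p = 0.324) and 0.17 at 959 mg/kg, from 11.03, 11.23 and 11.45 (lowest, median, highest) in vehicle to 11.29, 11.44 and 11.48. Mgst3 had 0.16 at 959 mg/kg (adjusted p = 0.806).

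Among the remaining genes, the omega enzymes Gsto1 and Gsto2 had differences of 0.06 and -0.07 at 959 mg/kg, and the mean of Gsto2 over all arrays was under the median over all probe sets. Gstz1, the zeta enzyme of tyrosine breakdown, ran from 12.08 to 12.23 in vehicle and from 11.98 to 12.08 at 0.959 mg/kg, where all 6 arrays lay below every vehicle array (0.142% of all probe sets). Its difference there was -0.11 (SE 0.048, adjusted p = 0.795), and it was -0.02 at 959 mg/kg.

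**Figure D4:**
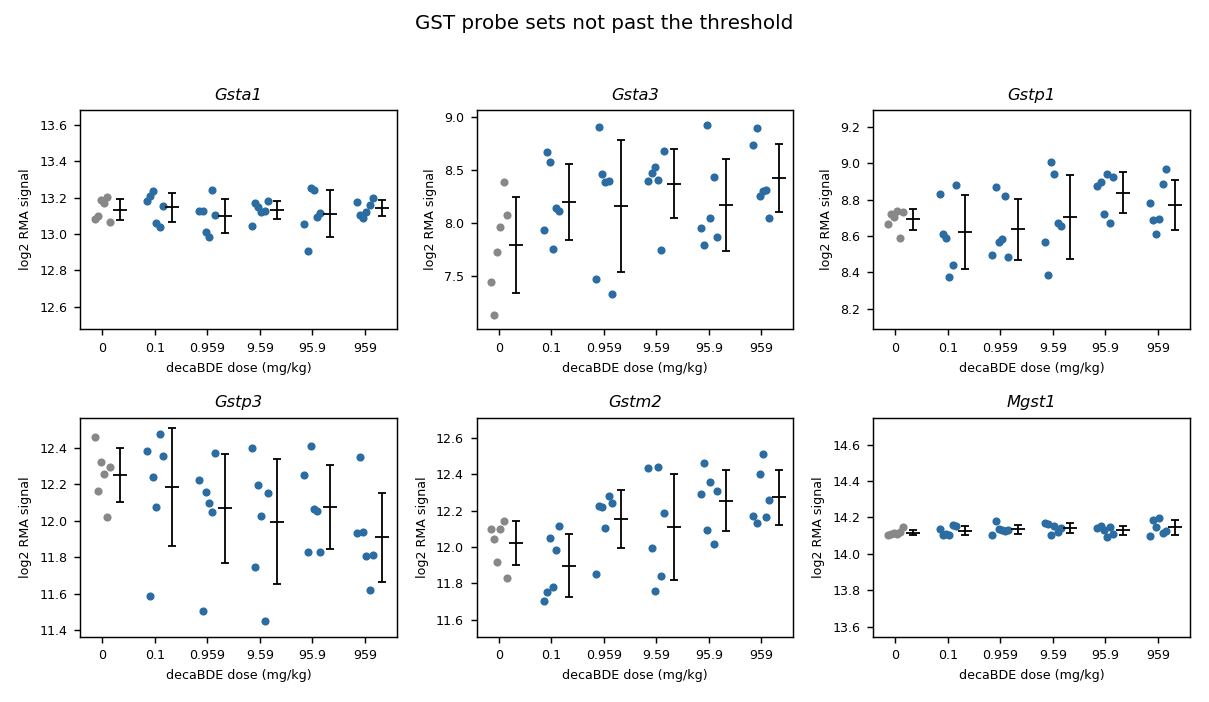
Log2 RMA signal of 6 GST probe sets that passed no test (1 panel each) in every array, by decaBDE dose in mg/kg; grey points are vehicle arrays, blue points dosed arrays, and bars show the mean and SD of 6 arrays. Gsta1 and Mgst1 are flat within narrow spreads, Gsta3 spreads widely in every group, and 5 of 6 Gstp3 arrays at 959 mg/kg lie below the vehicle arrays.

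Further contrasts asked whether GST levels differed between doses. Between 959 and 95.9 mg/kg 0 GST probe sets were called by limma, where 0.00644% of all probe sets rose. Without adjustment 0 rose and 0 fell (3.02% and 1.75% of all). Between 9.59 and 0.959 mg/kg 0 were called (0% of all rose and 0.00322% fell). There 2 rose without adjustment (3.34% of all), Gstm4 and Gstt1 (difference 0.18, adjusted p = 0.562), and 0 fell (4.28%). Between 959 and 9.59 mg/kg 0 were called (0.00644% of all rose), and without adjustment 1 rose (3.73%), Gstm5 (0.29, adjusted p = 0.587), and 0 fell (3.41%). For Gsta4 the 959 and 9.59 mg/kg groups differed by 0.05 (95% interval -0.10 to 0.20), and for the Gsta2 and Gsta5 probe set by -0.10 (95% interval -0.34 to 0.15). Both intervals span 0 and leave room for changes of either sign.

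Genes of 1 class were compared for unequal change at 959 mg/kg by an exact permutation test of their log2 ratio within each array, over 38 pairs adjusted together. The smallest p the 6 against 6 arrays allow is 0.00216. Of the 38 pairs 5 passed, 3 among 10 alpha pairs and 2 among 6 theta pairs, and 0 of 21 mu pairs did. Gsta4 and the shared Gsta2 and Gsta5 probe set each differed in change from Gsta1 (by 0.38 and 0.45, adjusted p = 0.0329 for both in this exact permutation test). Gsta4 also passed against Gsta3l1, whose vehicle mean was 2.45, and how far Gsta3l1 stood above background was not measured. Gstt1 and Gstt3 differed from the Gstt2 probe set 1396468_at but not past the threshold from the other Gstt2 probe set. The pi pair differed by 0.42 (adjusted p = 0.0905 by the exact permutation test). For alpha, unequal change thus rests on the pairs with Gsta1 and 1 pair with Gsta3l1. For theta it rests on 1 of the 2 Gstt2 probe sets, while within mu no pair was told apart.

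The GST genes lie in clusters, by the order of genes in RefSeq's assembly GRCr8. Gsta4, Gsta5 and Gsta2 are next to each other on chromosome 8, and both of their probe sets rose with dose rank. Gsta3 and Gsta1, on chromosome 9, are also adjacent, and neither was called. The 7 measured mu genes lie in 1 cluster on chromosome 2 in the order Gstm5, Gstm6l, Gstm7, Gstm3, Gstm2, Gstm1 and Gstm4, with other mu genes between Gstm7 and Gstm3, and 3 of the 7 rose with dose rank. On chromosome 20 Gstt1 and Gstt3 are neighbours and both rose with dose rank, while Gstt2, in the same cluster, did not pass. Gstp1 and Gstp3 are adjacent on chromosome 1. Whether probes of neighbouring genes cross-hybridize was not tested.

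Promoter windows of 300 bases, most of them upstream of the annotated start (RefSeq, assembly GRCr8), were at hand for 21 of the 25 genes. They are shown for Gsta4 and Gsta2, from the same cluster, for Gstm1, called at 959 mg/kg, and for Gstp1, which was not called. The Gsta4 probe set rose with dose rank, as did the one shared by Gsta2 and Gsta5, whose rise cannot be assigned to either gene. Capitals mark matches on either strand to the core of the antioxidant response element bound by NRF2, TGACNNNGC, or to GCGTG, the core of the xenobiotic response element bound by AhR with its partner.

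Gsta4, chr8:87947015-87947314, plus strand: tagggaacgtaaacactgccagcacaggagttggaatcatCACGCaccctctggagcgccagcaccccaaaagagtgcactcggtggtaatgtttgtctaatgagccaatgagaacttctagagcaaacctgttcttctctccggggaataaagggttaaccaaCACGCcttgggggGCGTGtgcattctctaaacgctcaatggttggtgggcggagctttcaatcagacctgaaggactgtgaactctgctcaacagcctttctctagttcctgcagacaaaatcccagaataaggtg
Gsta2, chr8:88077043-88077342, minus strand: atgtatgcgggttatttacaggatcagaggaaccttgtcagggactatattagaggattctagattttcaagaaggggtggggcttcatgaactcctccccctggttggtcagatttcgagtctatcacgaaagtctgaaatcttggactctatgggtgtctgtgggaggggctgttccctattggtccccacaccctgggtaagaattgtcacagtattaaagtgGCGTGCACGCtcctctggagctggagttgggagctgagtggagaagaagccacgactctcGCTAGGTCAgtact
Gstm1, chr2:198343334-198343633, minus strand: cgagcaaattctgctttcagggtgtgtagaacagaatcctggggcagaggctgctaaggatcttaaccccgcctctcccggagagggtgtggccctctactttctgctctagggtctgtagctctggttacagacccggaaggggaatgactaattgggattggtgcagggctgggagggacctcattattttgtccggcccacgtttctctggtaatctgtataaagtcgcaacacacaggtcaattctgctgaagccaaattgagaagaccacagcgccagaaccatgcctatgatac
Gstp1, chr1:210769656-210769955, minus strand: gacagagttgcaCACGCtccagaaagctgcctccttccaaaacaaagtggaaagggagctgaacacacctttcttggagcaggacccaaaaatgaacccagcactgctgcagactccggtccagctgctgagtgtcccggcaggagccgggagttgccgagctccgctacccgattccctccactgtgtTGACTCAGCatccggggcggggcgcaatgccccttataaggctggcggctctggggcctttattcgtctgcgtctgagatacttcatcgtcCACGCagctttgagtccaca

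The Gsta4 window holds 3 GCGTG cores, at -210, -86 and -73 from the start (the start base is 0), and no TGACNNNGC. The Gsta2 window holds 2 GCGTG cores at -24 and -19 and 1 TGACNNNGC at 36, which overlaps an AGGTCA, the half-site bound by nuclear receptors. The window of Gsta5, which shares the probe set of Gsta2, holds neither core and no AGGTCA. The Gstm1 window holds neither core but has an AGGTCA at -11, left in lower case above. The uncalled Gstp1 has 1 TGACNNNGC at -61, read as TGACTCAGC, and 2 GCGTG cores at -238 and 30. Over the family, 7 of 23 windows (7 of 21 genes) have a TGACNNNGC, which 12.1% of all 33469 promoter windows hold. A GCGTG is in 8 of 23 windows (8 of 21 genes), and 29.7% of all windows hold it. AGGTCA was in 2 of the 23 windows, of 2 genes (16.2% of all windows), and AGTTCA, a second half-site, in 7 of 23, of 7 genes (14.5%). The genes with TGACNNNGC were Gsta1, Gsta2, Gsta3, Gstm5, Gstm7, Gstp1 and Gstz1. Those with GCGTG were Gsta2, Gsta3, Gsta4, Gstm4, Gstm5, Gstp1, Gstp3 and Mgst3. A match is a description of letters and no evidence of binding, and elements outside these windows were not searched.

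Outside the family, the genes whose 6 group means were most like those of Gsta4 were Por, the electron donor of P450 enzymes (Pearson's r 0.998), Anapc10 (0.997), Parp1, which acts in DNA repair (0.995), Mknk2 (0.995) and Fkbp8 (0.992). Over the 36 arrays they were Stbd1 (0.78), the conjugate exporter Abcc3 (0.77), the microsomal epoxide hydrolase Ephx1 (0.763), Cyp3a23-3a1, a cytochrome P450 (0.751), and Cyb5a, cytochrome b5 (0.739). These r values describe 6 and 36 points that share their vehicle arrays and normalization, and they were picked as the highest among all genes. By limma, Anapc10, Parp1, Mknk2 and Fkbp8 were not called at 959 mg/kg (adjusted p = 0.829, 0.0584, 0.523 and 0.748). Por (adjusted p = 0.00473) and the genes picked over the 36 arrays were.

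Other genes of glutathione metabolism were counted from a list of 48, of which 45 were measured, each by its brightest probe set. Of the 45, 0, 0, 1, 1 and 2 rose at the 5 doses, where 0%, 0.0352%, 0.176%, 0.127% and 0.169% of all genes did, and 4 rose with dose rank (0.556% of all genes). None of the 45 fell. The 4 were Gsr, Abcc2, Abcc3 and Ahr. Of the 7 genes that supply glutathione, 0 were called in any of these tests. Gclc and Gclm, the subunits of the rate-limiting enzyme of its synthesis, had differences of -0.04 and 0.10 at 959 mg/kg (adjusted p = 0.988 and 0.913).

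Gsr encodes glutathione reductase, which regenerates glutathione from its oxidized form. Its lowest, median and highest levels were 8.67, 8.78 and 8.86 in vehicle and 8.93, 9.11 and 9.36 at 959 mg/kg. All 6 arrays at 959 mg/kg lay above every vehicle array, as in 0.283% of all probe sets, and 5 of 6 did at each dose from 0.959 to 95.9 mg/kg. The difference at 959 mg/kg was 0.37 (SE 0.091, adjusted p = 0.151), and the slope was 0.075 per dose rank (SE 0.015, adjusted p = 0.0109).

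The exporters Abcc2 and Abcc3 carry glutathione and other conjugates out of hepatocytes, to bile and blood. Abcc2 had a lowest, median and highest level of 10.05, 10.18 and 10.62 in vehicle and 10.38, 10.54 and 10.64 at 959 mg/kg, where 1 of 6 arrays was above every vehicle array. Its difference was 0.26 (adjusted p = 0.523) and its slope 0.067 (SE 0.015, adjusted p = 0.0236). Abcc3 had levels of 4.58, 5.41 and 5.52 in vehicle and 6.00, 6.38 and 6.74 at 959 mg/kg, without overlap (0.283% of all probe sets). Its difference at 959 mg/kg was 1.17 (adjusted p = 0.000551 by limma). Abcc3 and Ahr were the 2 genes of the list called at that dose. Ahr, which encodes the receptor AhR, ran at 4.11, 4.80 and 5.32 in vehicle and at 5.32, 5.69 and 5.92 at 959 mg/kg, with 5 of 6 arrays above every vehicle array. Nfe2l2, the gene of NRF2, had a difference of -0.01 at 959 mg/kg (adjusted p = 0.997), and those of the receptors PXR (Nr1i2) and CAR (Nr1i3) had -0.01 and 0.42 (adjusted p = 0.994 and 0.782).

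**Figure D5:**
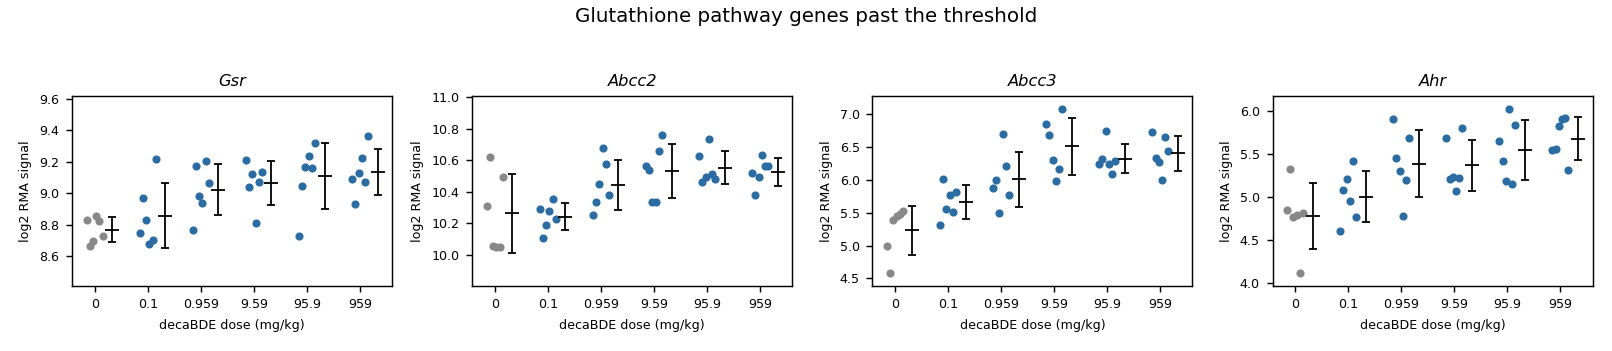
Log2 RMA signal of the 4 genes of the glutathione list that rose with dose rank (1 panel each) in every array, by decaBDE dose in mg/kg; grey points are vehicle arrays, blue points dosed arrays, and bars show the mean and SD of 6 arrays. All 6 arrays at 959 mg/kg are above every vehicle array for Gsr and Abcc3 and 5 of 6 for Ahr, while 1 of 6 is for Abcc2.

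Cell type markers were also compared with vehicle, and they were not tested against the GST levels. Over all genes, 7548, 7481, 7802, 7544 and 7385 of 14217 were above their vehicle mean at the 5 doses. Of 7 pericentral hepatocyte markers, Cyp1a2 and Slc1a2 rose at 959 mg/kg (2 of 7, against 0.169% of all genes) and 6 of 7 were above their vehicle mean. The other pericentral markers, Glul, Cyp2e1, Oat, Lgr5 and Axin2, were not called at this dose. The mean level of the 7 ran from 9.14 to 9.42 in vehicle arrays and from 9.31 to 9.51 at 959 mg/kg. Of 6 periportal markers 0 were called, with array means from 10.76 to 11.04 in vehicle, 10.48 to 10.78 at 9.59 mg/kg and 10.56 to 11.25 at 959 mg/kg, where 3 of 6 markers were above their vehicle mean. All 6 measured Kupffer cell and macrophage markers were below their vehicle mean at every dose, with 0 called. Their median differences at the 5 doses were -0.491, -0.511, -0.299, -0.185 and -0.221, so the fall did not grow with dose. Their array means ran from 7.72 to 8.85 in vehicle, from 7.38 to 8.58 at 0.1 mg/kg and from 7.80 to 8.61 at 959 mg/kg. The 5 measured cholangiocyte markers were all above their vehicle mean at 95.9 and 959 mg/kg, with 0 called and array means from 5.12 to 5.72 in vehicle and from 5.27 to 6.13 at 959 mg/kg. The 6 stellate cell and fibroblast markers were all above it at 9.59 and 95.9 mg/kg and 5 of 6 at 959 mg/kg, with 0 called. Their array means ran from 7.37 to 7.99 in vehicle, from 7.79 to 8.38 at 95.9 mg/kg and from 7.37 to 8.54 at 959 mg/kg. Of 5 endothelial, 5 lymphocyte and 3 erythroid markers measured, 0 were called, and 0, 1 and 0 were above their vehicle mean at 959 mg/kg. Signal from the actin 3' end exceeded that from its 5' end, a measure of RNA integrity, by a mean of 1.16 in vehicle and 1.24, 1.23, 1.2, 1.17 and 1.14 at the 5 doses. For GAPDH the same measure had means of -0.0805 in vehicle and -0.0427, -0.0723, -0.0308, -0.1 and -0.0948 at the 5 doses. The part of zonation, cell makeup and RNA quality in the GST differences was not tested.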

How the data were processed

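Liver RNA of 36 arrays (6 groups of 6, grouped and numbered by the sample titles) was analysed. The deposited values are log2 RMA signals per probe set, which the authors made with the affy package, per the submitters' processing notes; its version and a genome build are not given in the sources used here. Values ran from 2.02 to 15. The 57 array controls among the 31099 probe sets were dropped and no filter on low values was used, so all 25 GST probe sets were tested. Probe sets were named from the platform annotation, and all 25 GST gene IDs were found in RefSeq with 0 symbols differing.

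A limma model (version 3.58.1, R 4.3.3) with a mean for each group was fitted to the 31042 others by lmFit and eBayes; residual degrees of freedom were 30 and prior ones 5.12. It gave two-sided contrasts, an F-test and a line in dose rank. Within a comparison, p-values of all probe sets were adjusted together (Benjamini-Hochberg), and 0.05 was the threshold. The maanova package named in the design text was not used here. Pairs of probe sets were compared by an exact permutation test (924 splits, two-sided). The number of arrays limits the precision, intervals are at 95%, and scripts were tested on simulated arrays.

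Every GST gene is counted. Described in full are those called in any test, at least the 2 of each class with the smallest F-test p, and Gsta2, Gsta3, Gsta5, Gstm1, Gstm2, Gstm4 and Gstp1. For the other glutathione genes, called ones are named. The members, lists and tests were chosen with earlier results of these data known. Alternatives were another quantile normalization, values minus the array median, a median-level filter, 1 probe set per gene (the brightest), unmoderated variances, an intensity trend, weighted arrays, a block for the replicate number, the compared groups only, log10 dose without vehicle, and each array left out. Contrasts between doses other than 959 with 95.9 mg/kg, the class pairs and the block fit of the glutathione list were added after seeing the data.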

Additional observations from a re-analysis of the deposited data

Results flagged for a closer look

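Each GST probe set was examined in each group for an array far from the other 5, by the gap to its neighbour as a share of the group's range (Dixon's 95% limit for 6 arrays). Of 150 group tests, 13 in 8 probe sets passed the limit. About 1 in 20 passes by chance when values are normally distributed and tests are independent, while these tests share arrays. The share over all probe sets was not counted, so an excess among GST probe sets was not tested. Low arrays were Gsta3 at 9.59 mg/kg (replicate 5, 7.75, next 8.40), Gstp3 at 0.959 mg/kg (replicate 2, 11.50, next 12.05) and Gsto2 at 9.59 mg/kg (replicate 2, 4.95). Gstm6l had a low array at 0.959 mg/kg (replicate 4, 3.32) and at 9.59 mg/kg (replicate 6, 3.16). High arrays of the Gsta2 and Gsta5 probe set were 13.82 (95.9 mg/kg replicate 2) and 13.86 (959 mg/kg replicate 6), and the slope of this probe set was not called without the second of these. The Gstt2 probe set 1368409_at had a high array at 959 mg/kg (replicate 6, 10.71). The Gstt2 probe set 1396468_at had a high one at 0.959 mg/kg (replicate 6, 6.79) and a low one at 959 mg/kg (replicate 6, 6.14). Gsto1 had a high array at 0.1 mg/kg (replicate 2, 11.45) and at 0.959 mg/kg (replicate 3, 11.41), and Gsto2 in vehicle (replicate 1, 5.32).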

How the results depend on the processing

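None of the GST differences or slopes called changed sign under the alternatives run. Of 141 values of the single called GST results under the alternatives other than leaving out arrays, 117 kept the call (and the sign, where there is one), 24 lost it and 0 reversed. The 2 calls at 9.59 mg/kg became 1 with another quantile normalization, 1 without variance moderation, 1 with an intensity trend and robust estimation, and 0 with only the compared groups. They became 3, with Gstm3 added, after a filter at the median level and also with the brightest probe set per gene. The 0 calls at 95.9 mg/kg became 1 without variance moderation, and the 3 at 959 mg/kg became 0 with only the compared groups. The F-test's 3 calls became 6 after a filter at the median level, 6 with an intensity trend and 5 with array weights. The line's 8 calls became 10 with array weights, which added Gstm2 and Gstm7, and 1 with log10 dose and vehicle left out. With each array left out in turn, the counts ran from 0 to 3 at 9.59 mg/kg, 1 to 3 at 959 mg/kg, 1 to 5 by the F-test and 6 to 9 by the line, and stayed at 0 at 0.1, 0.959 and 95.9 mg/kg and for 959 against 95.9 mg/kg. The contrasts of 9.59 with 0.959 and 959 with 9.59 mg/kg were not refitted this way. The F-test gave 1 on omitting vehicle replicate 5 or replicate 3 or 4 at 0.1 mg/kg, and 5 on omitting replicate 6 at 0.1 mg/kg.

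Replicate numbers did not pair the arrays: deviations of arrays with the same number had a median correlation of -0.0344 (90 pairs, 12 over 0.1), against 0.00851 for other numbers, and 6 of 36 arrays correlated best with their own number. With the number as a block, the calls at 9.59 mg/kg became 0, those at 959 mg/kg and by the F-test 2 each and those by the line 6, and 2 genes of the glutathione list were called at some dose (2 without the block). The cause of these shifts was not tested. How far low probe sets stood above background was not measured.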
